A study of Mus musculus with 30 samples.

Results

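The comparison described here set knockdown of the long noncoding RNA CASC15, in a form called long CASC15, against a control knockdown in cells that all received angiotensin II. It took the libraries of sequencing run 3 in both arms, paired by replicate number, and described them across every expressed gene: 8 of the 30 libraries of the series, 4 in each arm, and 15103 tested genes of 78334 listed. The cells were cultured mouse aortic smooth muscle cells by their labels. The control arm carried a control knockdown and the other arm a knockdown of long CASC15, by transfection for at least 24 h. The library names put all 4 knockdown libraries in 1 group (lCAS), which was used here. Their titles and treatment labels do not: they read long CASC15 for replicate 1 only, and CASC16, CASC17 and CASC18 for replicates 2, 3 and 4. Both arms were starved of serum for 48 h and given human angiotensin II at 10 ng/ml for 24 h. The protocol describes GapmeRs as well as small interfering RNAs and does not say which of them these libraries received. Replicates 1 to 4 came from the batches the labels call P16, P17, P18 and P19, with 1 control and 1 knockdown library in each, and values below are always given in that order. The labels do not say whether a batch is a separate culture or animal, so p-values measure the spread between these libraries only. Nor do they name the strain, age or sex of the source animals, and the growth protocol speaks of both mouse and rat cells. The knockdown was transient, and the labels name no second reagent against the same RNA in these libraries. A further 8 libraries of run 3, with the same knockdowns in the same batches but no treatment, were compared to see where the effects with and without the hormone differed. Their titles number the knockdown CASC19 to CASC22. They and 4 libraries with a control knockdown and PDGF-BB entered the same fit, so they share in its estimates of spread and of batch.

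A long noncoding RNA is a transcript with no long open reading frame, and such RNAs can act on chromatin, on neighbouring genes or on other RNAs. A GapmeR is an antisense oligonucleotide with a DNA core that recruits RNase H to cut the RNA it pairs with, while a small interfering RNA does so through the RISC complex. Angiotensin II is a peptide hormone that acts on vascular smooth muscle mainly through the AT1 receptor, where it raises intracellular calcium and is known for contraction, growth and matrix production. Smooth muscle cells in culture lose contractile proteins and take on a proliferative, matrix-producing state that resembles a fibroblast in many of its transcripts.

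Each library held 15771490 to 20385011 counts, with 16603 to 17892 genes at 3 counts or more, and mitochondrial transcripts took 2.37% to 3.33% of counts. The defining contractile markers were at or near 0: Cnn1 never passed 1 count in a control library or 4 in a knockdown library, and Tagln and Myh11 stayed at 2.05 CPM or below, where CPM is the count scaled to a common library size by TMM. Acta2 was present at 195, 198, 219 and 227 CPM in the controls, so the name smooth muscle is used as a label only. The 9 fibroblast markers summed to 1954 to 2227 CPM in the controls and 1932 to 2395 CPM with knockdown, sums mostly of Dcn, and of the 6 that were tested 3 rose (Pdgfra, Lum and Dcn, of which 1 without the block) and 3 fell (Ly6a, Pi16 and Col14a1). The 7 pericyte markers summed to 328 to 436 CPM in the controls and 363 to 648 CPM with knockdown, and of the 5 tested Rgs5, Notch3 and Pdgfrb rose, the last not without the block. The part of such cells in the results was not tested. Endothelial markers summed to 4.67 CPM at most, leukocyte markers to 1.77 CPM and adipocyte markers to 0.506 CPM, and Ptprc, Adipoq and Tie1 had 0 counts in every library. Epithelial markers, nearly all of them Cdh1, summed to 104 to 128 CPM in the controls and 35.5 to 64.6 CPM with knockdown. Of the 4 tested markers of Schwann and neural cells 1 rose, not without the block, and 1 fell. Batch P19 stood apart in both arms: on the second principal component, which held 17.3% of the variance, its libraries lay at -31.97 and -38.1 and the other 6 between -2.86 and 27.3. On the first component (46.9%) the P19 knockdown library lay at -1.31, between the controls (-50.3 to -27.0) and the other knockdown libraries (41.1 to 47.5). The fit kept the replicate number as a block, and counts that moved by more than 1.5 times without the block are given with both values.

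The targeted RNA was lower in every batch. It was read from 2610307P16Rik (ENSMUSG00000085936.10), the noncoding gene on chromosome 13 next to Sox4, which no table used here pairs by name with CASC15. It measured 4.94, 6.13, 5.31 and 4.69 CPM in the controls and 2.62, 3.08, 2.6 and 3.89 CPM with knockdown. The groups did not overlap, although the P19 knockdown library, at 3.89 CPM, came closest to its control. The mean fell from 5.27 ± 0.63 to 3.04 ± 0.603 CPM (SD, n = 4), 57.8% of the control level. That is -0.80 on the log2 scale (SE 0.19, adjusted p = 0.00143). Adjusted p-values throughout are those of the quasi-likelihood test in edgeR, after Benjamini and Hochberg over all genes tested, and a gene is said to have risen or fallen when that value is under 0.05. Gene counts do not separate transcripts, so the values do not show which form of the RNA was reduced.

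Among the nearest tested genes to either side of the target on chromosome 13, Sox4, a transcription factor of development and vessel formation, measured 1144, 1169, 1229.9 and 988 CPM in the controls and 1234, 1194, 1247 and 1215 CPM with knockdown. The arms overlapped and the difference was not called (log2 fold change 0.12, SE 0.073, adjusted p = 0.217). Mboat1, a lysophospholipid acyltransferase, changed most among neighbours with substantial counts, from 33.1 ± 1.95 to 18.1 ± 2.34 CPM (log2 fold change -0.87, adjusted p = 1.2e-07). Cdkal1, a tRNA-modifying enzyme, rose from 12.2 ± 0.867 to 16.5 ± 2.36 CPM (log2 fold change 0.43, adjusted p = 0.00274, not called without batch P18), and E2f3, a cell cycle transcription factor, fell from 38.4 ± 1.54 to 32.2 ± 1.41 CPM (log2 fold change -0.25, adjusted p = 0.00255). The noncoding A330102I10Rik rose from 1.0 ± 0.377 to 1.85 ± 0.111 CPM and Prl, the prolactin gene, fell from 0.608 ± 0.541 to 0.129 ± 0.0684 CPM, and both calls were lost without batch P19. Of the next 4 tested genes beyond Prl, namely Mrs2, Gpld1, Aldh5a1 and Tdp2, none passed the test.

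Knockdown moved a large part of the transcriptome by small amounts. Of 15103 genes tested, 6238 (41.3%) were called, 3083 of them higher (20.4%) and 3155 lower (20.9%). Among the called genes the absolute log2 fold change had a median of 0.40, 3820 of them changed by less than 0.5, and 1039 changed by at least 1, of which 464 rose and 575 fell. Over all genes tested the median log2 fold change was 0.01. Without the replicate number as a block, 4033 genes were called (26.7%), with 13.4% of all genes higher and 13.3% lower, and 4030 of these were called in both fits. The 4 control and 4 knockdown libraries did not overlap for 3753 genes (24.8%), 12.4% of all genes in each direction. The counts of gene lists below are set beside these shares, which cover genes of every level and are not matched to the members. The share called grew with level, so a share above 41.3% does not by itself set a list of well-expressed genes apart.

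**Figure D1:**
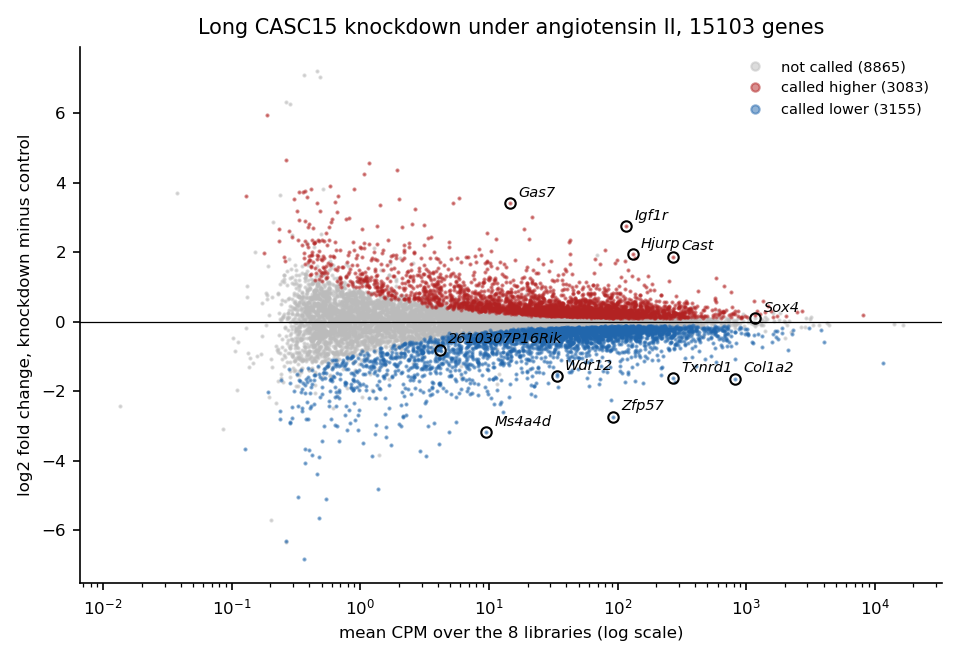
Log2 fold change of each tested gene, knockdown against control under angiotensin II, against its mean level in CPM over the 8 libraries (log axis), with called genes coloured by direction. The 3083 higher and 3155 lower calls are spread over the whole range of levels, most of them lie within 1 of 0, and the named genes are ringed.

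The share of genes called grew with level, from 10.2% higher and 9.24% lower in the lowest of 4 equal bins of mean expression to 27.0% and 31.5% in the highest, where more counts stand behind each value. The shares also differed by gene size. In the bin of genes with the longest genomic span (51061 bases or more in the GENCODE annotation), 31.1% were higher and 23.2% lower, and in the bin with the shortest span (up to 8045 bases) 14% were higher and 14.4% lower. Among the bin with the longest merged exons, 33.1% were higher and 22.3% lower, against 11.2% and 17.5% in the shortest. Long noncoding RNA genes were called higher in 12.1% of cases and lower in 5.99%, and protein-coding genes in 22.6% and 23.9%. These shares describe the libraries and carry no test.

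The 12 largest rises under the naming rule ran from 2.03 to 3.56 on the log2 scale. That rule, also used for the falls, took only genes whose arms did not overlap and that were called without the block, so both were fixed by the choice. Igf1r (ENSMUSG00000005533.11, chromosome 7), the receptor tyrosine kinase for insulin-like growth factors, measured 24.6, 28.7, 31.3 and 36.5 CPM in the controls and 186, 222, 199.8 and 205 CPM with knockdown. All 4 knockdown libraries lay far above every control, with P19 in the middle of its arm (log2 fold change 2.76, SE 0.076, adjusted p = 7.45e-18). Its ligand Igf1 averaged 45.5 CPM in the controls and 40.7 CPM with knockdown and was not called (log2 fold change -0.17, adjusted p = 0.337), while Irs1, an adaptor of the activated receptor, fell from 69 ± 1.46 to 46.7 ± 4.12 CPM (log2 fold change -0.57, adjusted p = 1.19e-07). Gas7, a cytoskeletal adaptor first found in growth-arrested cells, measured 2.91, 2.6, 2.63 and 1.48 CPM in the controls and 40.9, 32.1, 26.9 and 8.07 CPM with knockdown. Every knockdown library was above every control, with P19 the lowest of its arm (log2 fold change 3.41, SE 0.24, adjusted p = 1.13e-08). Cacna2d1, an auxiliary subunit of voltage-gated calcium channels, rose from 14 ± 2.28 to 70.9 ± 8.24 CPM (log2 fold change 2.36, adjusted p = 6.32e-10).

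Pi15, a secreted peptidase inhibitor, rose from 0.853 ± 0.313 to 10.9 ± 5.55 CPM (log2 fold change 3.56), Sez6l from 0.895 ± 0.455 to 9.69 ± 2.53 CPM (3.43), and Wnt5b, a non-canonical WNT ligand, from 5.0 ± 1.97 to 32.7 ± 14.9 CPM (2.66). Sema5a, a semaphorin, rose by 2.30, Flrt1, a leucine-rich transmembrane protein, by 2.38, Cdh13, a cadherin anchored by a lipid, by 2.07 and Col11a2, a fibril collagen chain, by 2.03. Rgs5, a brake on G protein signalling that marks pericytes, measured 6.71, 7.01, 4.96 and 0.863 CPM in the controls and 67.7, 40.1, 34.7 and 11.7 CPM with knockdown. The P19 libraries were the lowest of both arms, yet knockdown exceeded control in each batch (log2 fold change 3.01, SE 0.35, adjusted p = 1.57e-05). Abca1, which exports cholesterol from cells, measured 2.28, 2.5, 3.15 and 2.77 CPM in the controls and 17, 19.7, 22.7 and 6.78 CPM with knockdown (log2 fold change 2.56, SE 0.38, adjusted p = 0.000103). Adjusted p-values of these 12 genes ran from 7.45e-18 to 0.000103, and the P19 knockdown library was the lowest of its arm for 10 of them, all but Igf1r and Cacna2d1.

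Among the 12 largest falls, Zfp57 (ENSMUSG00000036036.16, chromosome 17), a zinc finger protein that keeps imprinted loci methylated, measured 172, 185, 181 and 104 CPM in the controls and 23.9, 24.5, 30.1 and 18 CPM with knockdown. The arms were far apart although the P19 control was the lowest of the controls (log2 fold change -2.72, SE 0.083, adjusted p = 1.56e-15). Ms4a4d, a membrane protein of the MS4A family, measured 19.5, 16.2, 15.8 and 17.1 CPM in the controls and 1.18, 1.4, 1.75 and 3.29 CPM with knockdown (log2 fold change -3.18, SE 0.31, adjusted p = 1.28e-06). Ccl2, the chemokine that draws monocytes, measured 21.2, 24.5, 28.6 and 18.2 CPM in the controls and 3.95, 4.59, 4.39 and 8.07 CPM with knockdown, with every knockdown library below every control (log2 fold change -2.15, SE 0.20, adjusted p = 3.88e-07). F2rl1, the protease-activated receptor PAR2, fell from 11.5 ± 2.14 to 2.75 ± 1.19 CPM and Capn6, a calpain without protease activity, from 16 ± 2.27 to 3.81 ± 1.46 CPM, each by 2.08 on the log2 scale. Hecw1, a ubiquitin ligase, fell from 36.4 ± 4.7 to 8.9 ± 5.88 CPM (log2 fold change -2.13, adjusted p = 7.04e-05). Ly6a, the surface protein Sca-1, measured 166, 134, 105 and 161 CPM in the controls and 21.2, 16.3, 19.8 and 82.6 CPM with knockdown. Its P19 knockdown library was far above the other 3 and still below every control (log2 fold change -2.24, SE 0.41, adjusted p = 0.000805). Muc5b, a gel-forming mucin, fell by 2.59, Gsta1, a glutathione transferase, by 2.31, Tgtp1, an interferon-induced GTPase, by 2.20, AI661453 by 2.89 and Dlgap5, a spindle protein, by 2.03. Gsta1, Tgtp1 and Ly6a have close paralogs, and how the reads were divided among them could affect their values.

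The 5 smallest adjusted p-values among genes of at least 100 CPM belonged to Cast, Igf1r, Mycbp2, Prdx2 and Nek7. Cast (ENSMUSG00000021585.11, chromosome 13), which encodes calpastatin, the inhibitor of calpain proteases, measured 102, 109, 115 and 139 CPM in the controls and 380.1, 392, 434 and 505 CPM with knockdown. Every knockdown library was far above every control (log2 fold change 1.88, SE 0.044, adjusted p = 3.54e-20). Mycbp2, a large ubiquitin ligase, rose from 74 ± 7.08 to 186 ± 23.1 CPM and Prdx2, a peroxidase, from 105 ± 10.2 to 218 ± 11 CPM, while Nek7, a kinase of the mitotic spindle and the inflammasome, fell from 314 ± 23.3 to 128 ± 19.1 CPM. Each of these 5 genes changed in the same direction in all 4 batches. Choosing them by the smallest p-values of the fit blocked on these batches made that likely.

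**Figure D2:**
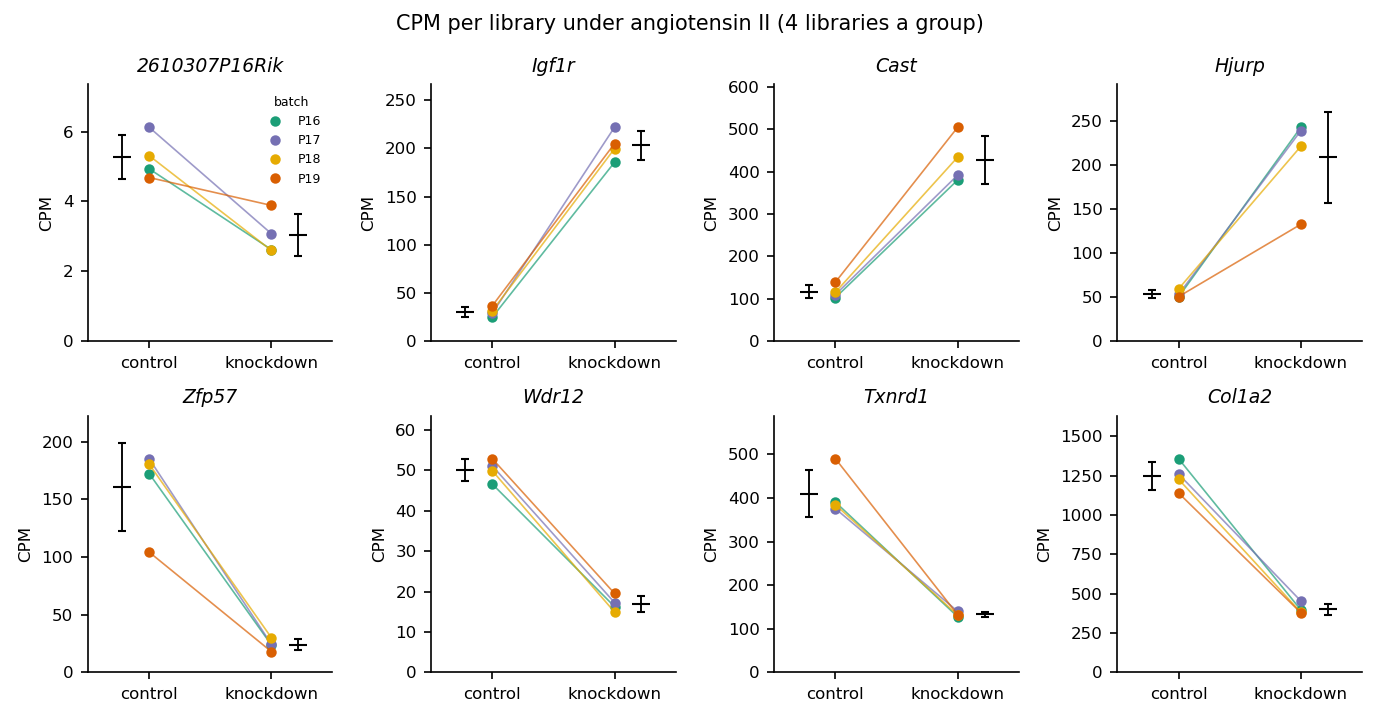
CPM of 8 genes in each library under angiotensin II, with control and knockdown libraries of the same batch joined by a line and the mean ± SD (n = 4) beside them. Igf1r, Cast and Hjurp are higher in all 4 knockdown libraries, and 2610307P16Rik, Zfp57, Wdr12, Txnrd1 and Col1a2 lower, without overlap between the arms.

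Genes of cell division fell together. Mitotic regulators drive entry into mitosis, build the spindle and kinetochore, and time chromosome separation, and many share a promoter element known as the cell cycle genes homology region, TTTGAA. That element, on either strand, stood within 250 bases before to 50 after the start of 27 of 42 mitotic genes with RefSeq promoters (64.3%). It did so for 20.2% of all 27025 genes with such promoters and for 14.4% of the 10333 tested genes with them. The final 120 bases before the start, written 5′ to 3′ on the strand of the gene with the element or its reverse complement TTCAAA in capitals, are shown for 5 of them because they carry the shared feature of the group. The 5 were chosen after their values were seen. Coordinates are of RefSeq's build GRCm38.p6, and a match is a description, not a bound site.
Mki67, chr7:135716380-135716499, minus strand: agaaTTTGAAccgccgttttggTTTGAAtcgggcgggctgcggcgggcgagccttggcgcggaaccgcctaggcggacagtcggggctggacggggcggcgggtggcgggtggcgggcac
Top2a, chr11:99024190-99024309, minus strand: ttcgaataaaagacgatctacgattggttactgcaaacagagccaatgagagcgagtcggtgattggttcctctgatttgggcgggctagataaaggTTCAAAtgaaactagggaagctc
Cdk1, chr10:69352913-69353032, minus strand: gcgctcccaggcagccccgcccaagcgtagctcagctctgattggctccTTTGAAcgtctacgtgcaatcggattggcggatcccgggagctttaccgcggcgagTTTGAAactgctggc
Kif11, chr19:37376262-37376381, plus strand: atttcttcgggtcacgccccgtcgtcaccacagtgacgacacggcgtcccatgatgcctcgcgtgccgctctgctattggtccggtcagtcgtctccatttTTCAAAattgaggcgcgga
Cdc20, chr4:118437344-118437463, minus strand: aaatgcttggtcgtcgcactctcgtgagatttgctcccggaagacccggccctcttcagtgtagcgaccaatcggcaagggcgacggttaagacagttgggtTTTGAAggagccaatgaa

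Of 50 mitotic regulators tested, 46 fell and none rose, and the median log2 fold change was -1.46. Within batches the medians were -1.82, -1.67, -1.82 and -0.93. Top2a, the topoisomerase that untangles sister chromatids, measured 65.3, 70.9, 86.4 and 121 CPM in the controls and 18.8, 19.2, 22.3 and 60.0 CPM with knockdown. Every knockdown library was below every control, with the P19 knockdown library close to the lowest control (log2 fold change -1.61, SE 0.29, adjusted p = 0.000718). Plk1, the kinase that starts spindle assembly, measured 3.99, 4.12, 5.78 and 8.63 CPM in the controls and 1.08, 1.29, 1.9 and 3.99 CPM with knockdown and was called with and without the block (log2 fold change -1.46, SE 0.29, adjusted p = 0.000774). Its P19 knockdown library stood at the level of the lowest control.

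Mki67, the proliferation antigen Ki-67, measured 18.3, 23.7, 30.2 and 60.3 CPM in the controls and 1.85, 1.62, 4.19 and 30.1 CPM with knockdown. Knockdown was lower than control in each batch, but the P19 knockdown library exceeded the P16 and P17 controls, so the arms overlapped (log2 fold change -2.08, SE 0.62, adjusted p = 0.0177, and adjusted p = 0.141 without the block). Cdk1, the kinase of mitotic entry, measured 11, 13.5, 14.3 and 24.8 CPM in the controls and 4.72, 6.1, 6.89 and 13 CPM with knockdown (log2 fold change -1.07). Kif11, the spindle motor Eg5, measured 14.7, 12.6, 17.2 and 27.7 CPM in the controls and 1.85, 1.78, 2.55 and 14.7 CPM with knockdown (-1.95). Cdc20, which activates the anaphase-promoting complex, measured 7.22, 6.18, 8.23 and 13.1 CPM in the controls and 2.93, 2.7, 1.9 and 8.37 CPM with knockdown (-1.18). In all 3 the P19 libraries were the highest of their arms, and each was called with the block but not without it (adjusted p = 0.0524, 0.0622 and 0.101).

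Ccnb1 fell from 14.5 ± 8.27 to 4.28 ± 5.54 CPM, Ccnb2 from 8.04 ± 3.5 to 2.1 ± 2.69 CPM, Aurkb from 6.27 ± 3.38 to 1.66 ± 2.09 CPM, Bub1b from 9.05 ± 3.87 to 3.95 ± 2.36 CPM, Cenpf from 18.1 ± 10.2 to 3.87 ± 5.39 CPM and Hmmr from 13.1 ± 7.33 to 3.39 ± 4.68 CPM. The first pair encode the cyclins of Cdk1, Aurkb and Bub1b serve the spindle checkpoint, Cenpf the kinetochore and Hmmr the spindle pole. All 6 were called with the block (adjusted p = 0.00529 to 0.0179) and not without it (adjusted p = 0.051 to 0.122). Foxm1, the transcription factor that drives many of these genes, fell from 17.7 ± 4.46 to 8.73 ± 2.68 CPM and stayed called in both fits (log2 fold change -1.02, adjusted p = 1.35e-05). The 4 mitotic genes that were not called were Spc24, Incenp, Mybl2 and Pttg1, of which Pttg1, the securin gene, averaged 25.4 CPM in the controls and 29.1 CPM with knockdown. Hjurp, the chaperone that loads the centromere histone, was not on the list and went the other way: it measured 49.9, 52.8, 59.2 and 50.3 CPM in the controls and 243, 239, 221 and 132 CPM with knockdown, without overlap (log2 fold change 1.95, SE 0.13, adjusted p = 7.24e-08).

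The count of mitotic genes depended on the pairing and on the batches kept. Without the block 15 of 50 were called lower (13.3% of all genes were), and the arms did not overlap for 8 (12.4% of all genes). Without batch P16, P17 or P18 the block called 25, 21 and 19 lower. Without batch P19, 47 fell both with and without the block, with a median of -1.75. Summed over the list, P16 to P18 controls held 459 to 601 CPM and the P19 control 943 CPM, and the knockdown libraries 178 to 200 CPM and 528 CPM. In these bulk libraries fewer dividing cells and less of these RNAs per cell cannot be told apart.

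**Figure D3:**
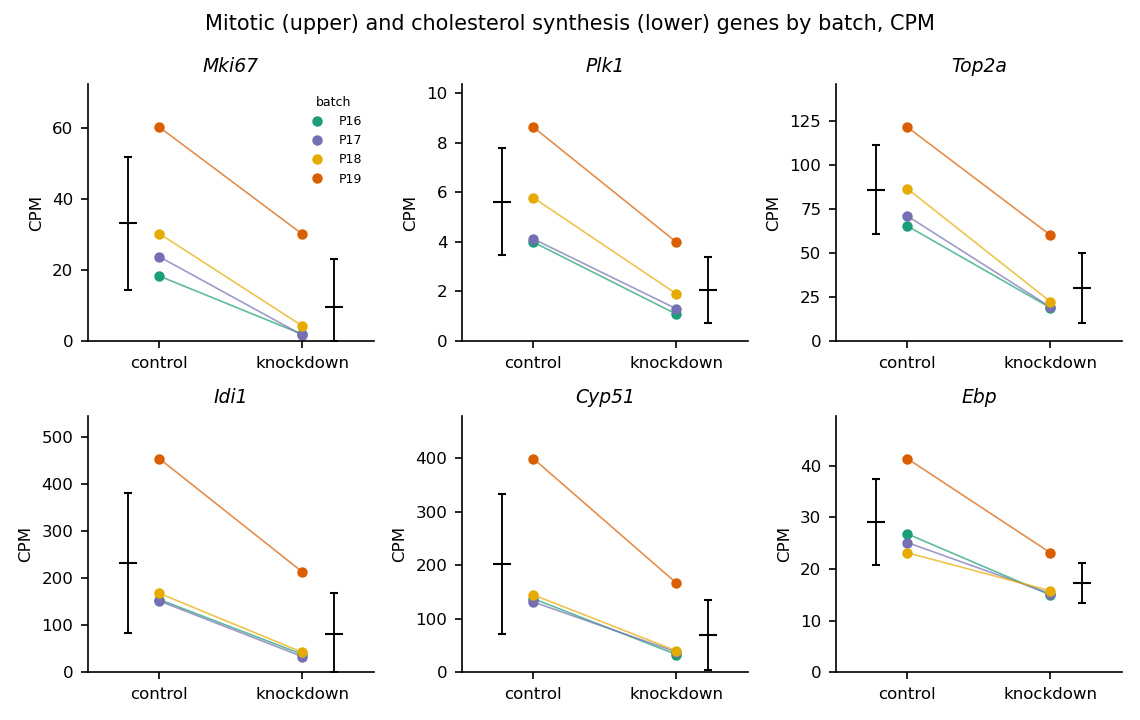
CPM of 3 mitotic genes (Mki67, Plk1, Top2a) and 3 cholesterol genes (Idi1, Cyp51, Ebp) in each library, with control and knockdown of the same batch joined by a line and the mean ± SD of each arm in black. Each line falls, and the P19 pair starts and ends above the other 3 batches.

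Genes of DNA synthesis were split. Of 40 replication genes, 3 rose (Lig1, Mcm7 and Pola2) and 14 fell, against 20.4% and 20.9% of all genes, and the median was -0.16. Without the block 3 rose and 3 fell, and without batch P18 7 fell. Tk1, which makes thymidine monophosphate, fell from 12.9 ± 4.35 to 6.46 ± 3.87 CPM and Mcm5, a subunit of the replicative helicase, from 12.9 ± 5.79 to 7.95 ± 5.07 CPM, neither of them called without the block (adjusted p = 0.0696 and 0.31). Lig1, the ligase that joins Okazaki fragments, rose from 20.4 ± 3.58 to 32.7 ± 2.13 CPM with no overlap and in both fits (log2 fold change 0.69, adjusted p = 6.06e-07). The E2F elements TTTCCCGC and TTTGGCGC stood in 7 and 6 of 33 members with RefSeq promoters (21.2% and 18.2%), against 2.40% and 1.12% of tested genes with them.

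Of 18 G1 cyclins, kinases and their inhibitors, 10 fell and 3 rose (Cdkn1b, Cdkn2c and Rbl2). Cdk6, the G1 kinase, measured 93.2, 91.9, 109 and 90.9 CPM in the controls and 48, 54.9, 53.9 and 64.5 CPM with knockdown, with no overlap between arms (log2 fold change -0.80, SE 0.069, adjusted p = 1.85e-09). Ccnd3 fell from 40.6 ± 3.82 to 26.2 ± 3.2 CPM (log2 fold change -0.63, adjusted p = 1.19e-07). Ccnd1, a D cyclin, measured 340.4, 316, 388 and 670.2 CPM in the controls and 139.6, 124, 157 and 531 CPM with knockdown. Each batch fell, but P19 held the highest value in both arms, and the call was lost without the block (log2 fold change -1.04, SE 0.23, adjusted p = 0.00293, and adjusted p = 0.253), as it was for Ccnd2 (adjusted p = 0.372). Without the block 3 of the 10 falls were called, and without batch P16 or P18 6 were. Of 28 p53 targets 8 rose and 4 fell, 2 without the block, and the share called (42.9%) was near the 41.3% of all genes. Gadd45a, which responds to DNA damage and stress, rose from 12.9 ± 1.64 to 22.9 ± 4.25 CPM, Sesn1 from 80.8 ± 9.59 to 123 ± 9.09 CPM and Perp from 79.8 ± 9.19 to 110.5 ± 11.8 CPM, and Tigar, a regulator of glycolysis, fell from 21.9 ± 1.83 to 15.5 ± 2.21 CPM, as did Ccng1, Tnfrsf10b and Fas.

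**Figure D4:**
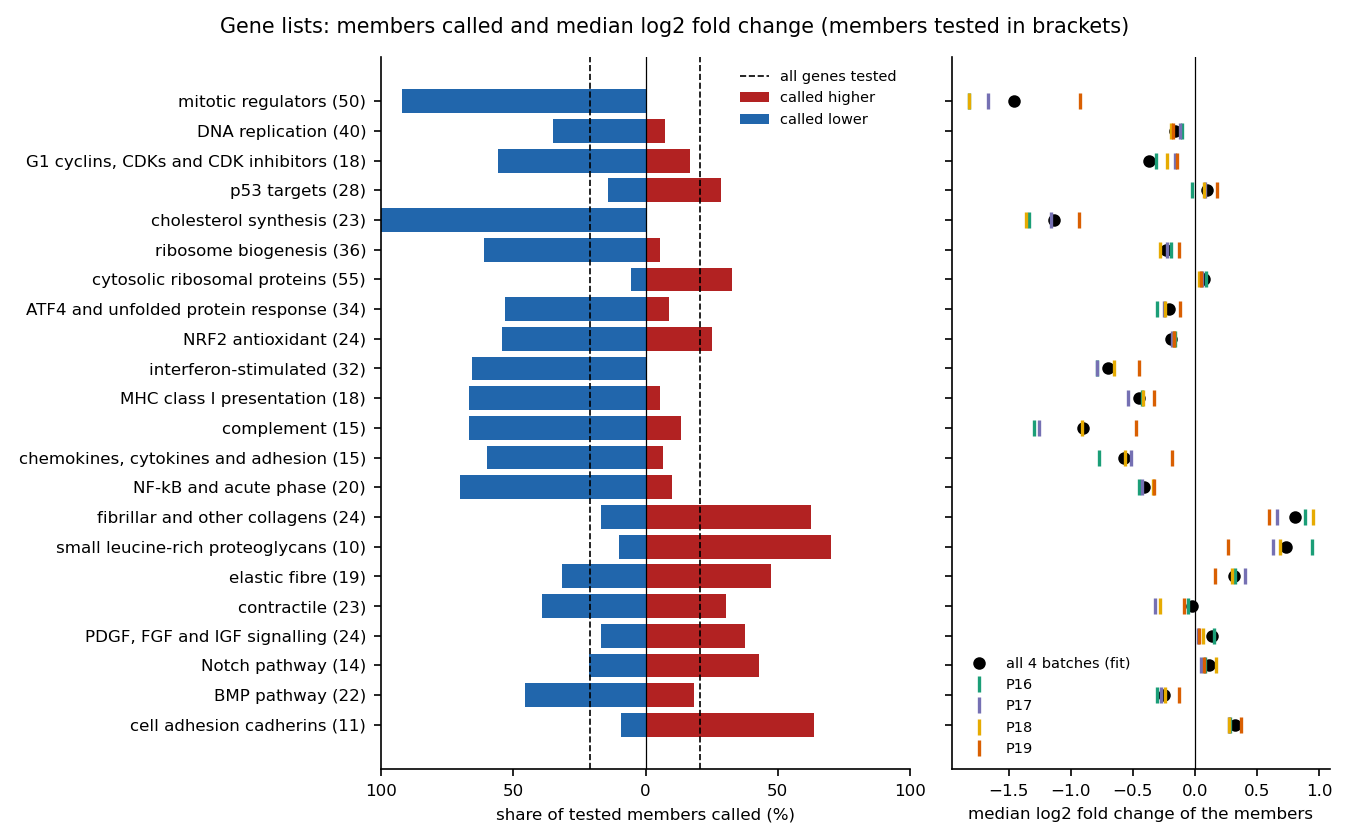
For 22 gene lists, the share of tested members called higher or lower (left; dashed lines, the shares over all tested genes) and the median log2 fold change with the median in each batch (right). All 23 cholesterol genes and 46 of 50 mitotic genes were called lower, and 15 of 24 collagen genes higher.

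Every tested gene of cholesterol synthesis and uptake fell. The pathway builds cholesterol from acetyl-CoA through mevalonate, squalene and lanosterol, and the factor SREBP2, product of Srebf2, switches its genes on when sterols are low. All 23 tested genes were called lower, with a median log2 fold change of -1.13 and batch medians of -1.34, -1.16, -1.36 and -0.93. At the head of the pathway Hmgcs1 measured 228, 226, 253 and 521 CPM in the controls and 83.1, 82, 93.1 and 265 CPM with knockdown (log2 fold change -1.32, SE 0.18, adjusted p = 6.29e-05). The P19 pair was the highest, and its knockdown library exceeded the other 3 controls. Idi1, an isomerase of the middle steps, measured 155, 152, 168 and 454 CPM in the controls and 38.2, 33.4, 42.5 and 213 CPM with knockdown (log2 fold change -1.77, SE 0.27, adjusted p = 0.000205).

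The late steps moved likewise. Cyp51, which demethylates lanosterol, fell from 203 ± 131 to 69.6 ± 64.8 CPM and Nsdhl, which acts after it, from 32.7 ± 20.4 to 9.84 ± 8.52 CPM. Ebp, a sterol isomerase, measured 26.8, 25.1, 23.1 and 41.3 CPM in the controls and 14.9, 15.2, 15.8 and 23.1 CPM with knockdown and was the 1 member whose arms did not overlap, by less than 0.01 CPM (log2 fold change -0.74, SE 0.083, adjusted p = 1.33e-07). Srebf2 itself fell from 343 ± 67.9 to 205 ± 90.3 CPM (log2 fold change -0.79, adjusted p = 0.00374). Without the block 3 of the 23 were called lower, and Hmgcs1, Idi1, Cyp51 and Srebf2 had adjusted p-values of 0.0639 to 0.15. Leaving out batch P16, P17 or P18 kept the count within 1.5 times. Without P19 all 23 fell with and without the block, with a median of -1.32 without it.

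A sterol element, TCACNCCAC on either strand, was searched in the same promoter window. It stood in 1 of the 16 members with a RefSeq promoter (6.25%), namely Hmgcs1, against 1.43% of tested genes with such a promoter. A share that rests on 1 match does not set the list apart. The search took these letters only, so it does not show whether other members hold variants of the element. The 150 bases before the start of Hmgcs1 are shown with the element in capitals because this gene heads the pathway (GRCm38.p6).
Hmgcs1, chr13:119690201-119690350, plus strand: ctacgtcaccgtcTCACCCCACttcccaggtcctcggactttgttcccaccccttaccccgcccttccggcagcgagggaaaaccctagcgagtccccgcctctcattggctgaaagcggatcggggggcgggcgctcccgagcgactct

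Lipid genes outside that pathway were split. Of 26 genes of fatty acid synthesis and oxidation 10 fell and 4 rose, among them Cpt1a, Acadvl and Pdk4, against 20.9% and 20.4% of all genes, with a median of -0.10. Without the block 4 fell and 1 rose, where 26.7% of all genes were called, and 1 rose without batch P17. Scd1, the desaturase that makes oleate, measured 461, 421, 440.4 and 977 CPM in the controls and 169, 189, 196 and 405 CPM with knockdown, without overlap between arms (log2 fold change -1.26, SE 0.12, adjusted p = 1e-06). Elovl6 fell from 32.1 ± 17.1 to 17.2 ± 8.93 CPM and Me1, which supplies NADPH, from 121 ± 37.3 to 69.8 ± 17.1 CPM, and Elovl6 was not called without the block (adjusted p = 0.132). Pdk4, which holds back glucose oxidation, rose from 10.7 ± 1.73 to 21.8 ± 3.02 CPM (log2 fold change 1.03, adjusted p = 6.99e-09).

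Most interferon-stimulated genes fell. Type I interferons switch on antiviral effectors and sensors. Of 32 tested members 21 fell and none rose, 20 fell without the block, and the arms did not overlap for 17, against 12.4% of all genes. The median was -0.70, with batch medians of -0.79, -0.79, -0.65 and -0.45. Bst2, the tetherin that holds virions to the membrane, measured 34.6, 27.5, 27.6 and 24.1 CPM in the controls and 11.8, 8.9, 9.43 and 12.9 CPM with knockdown (log2 fold change -1.41, SE 0.20, adjusted p = 5.61e-05). Oasl2, of the oligoadenylate synthetase family, measured 16.9, 14.8, 9.81 and 7.03 CPM in the controls and 6.32, 4.05, 4.79 and 3.09 CPM with knockdown (log2 fold change -1.39, SE 0.15, adjusted p = 4.6e-08). Knockdown libraries were lower in every batch for both, and for Oasl2 the P18 and P19 controls came closest to the knockdown arm. Ifih1, the RNA sensor MDA5, was even across batches at 19.2, 18, 18.7 and 20.0 CPM in the controls and 10.1, 10.4, 9.63 and 12.3 CPM with knockdown (log2 fold change -0.84, SE 0.11, adjusted p = 1.27e-06). Xaf1, an apoptosis factor, fell from 15.5 ± 3.65 to 6.32 ± 1.77 CPM. The transcription factor Irf7 averaged 5.82 CPM in the controls and 4.71 CPM with knockdown (log2 fold change -0.26, adjusted p = 0.337) and was not called.

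Genes of antigen presentation by MHC class I were mostly lower as well. Of 18 genes tested 12 fell and 1 rose, with a median of -0.45. The gene that rose was Tap2, a peptide transporter subunit, which was not called without the block (adjusted p = 0.108). H2-K1, a class I heavy chain, measured 53.6, 49.4, 48.5 and 55.9 CPM in the controls and 28.5, 33.5, 29 and 33.9 CPM with knockdown (log2 fold change -0.73, SE 0.068, adjusted p = 6.22e-09), and B2m, the shared light chain, fell from 367 ± 39.1 to 271 ± 31.8 CPM (log2 fold change -0.44, adjusted p = 2.42e-06). Psme2, a subunit of the proteasome activator, fell from 73 ± 4.44 to 48.4 ± 8.76 CPM. Class I heavy chains are near copies of each other, and reads shared among them could move the values of single genes.

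Chemokines, cytokines and adhesion molecules were mostly lower: of 15 tested, 9 fell and Il33 rose, and of 20 genes of NF-kB signalling and the acute phase 14 fell and Rela and Nfkbiz rose. Of these 3 rises only that of Rela was called without the block, and that of Il33 was lost also with DESeq2, with only the groups compared and without any 1 batch. Icam1, which binds leukocyte integrins, measured 30.1, 24.9, 22.2 and 18.8 CPM in the controls and 7.19, 10.3, 7.79 and 8.47 CPM with knockdown, with no overlap (log2 fold change -1.49, SE 0.15, adjusted p = 2.44e-07). Vcam1, the other main adhesion molecule, measured 1838, 1871, 1900.2 and 2182 CPM in the controls and 1187, 1310.2, 1359 and 1956 CPM with knockdown. Each batch fell, but the P19 knockdown library exceeded 3 controls (log2 fold change -0.44, SE 0.079, adjusted p = 0.000173). Cx3cl1, a membrane-bound chemokine, fell from 34.7 ± 4.37 to 22.4 ± 1.73 CPM. Il6, the cytokine of the acute phase, measured 2.91, 2.5, 3.1 and 2.03 CPM in the controls and 0.205, 0.054, 0.0998 and 0 CPM with knockdown, so that its knockdown values rest on 0 to 4 counts each (log2 fold change -4.82, SE 0.41, adjusted p = 5.37e-09). Hp, or haptoglobin, fell from 9.74 ± 2.67 to 4.02 ± 0.887 CPM and Bcl3, a nuclear partner of NF-kB, from 8.56 ± 2.21 to 4.38 ± 1.21 CPM. Cebpd, a transcription factor of the acute phase, fell from 66.1 ± 10.2 to 40.8 ± 2.61 CPM. Cxcl1, a chemokine for neutrophils, averaged 16.9 CPM in the controls and 13.7 CPM with knockdown and was not called (log2 fold change -0.30, adjusted p = 0.0711), although it was without batch P19 (adjusted p = 0.0302 for the log2 fold change of Cxcl1).

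Of 15 complement genes 10 fell and 2 rose (Cfp and Cd46, of which Cfp was not called without the block). Only 1 rise was called without batch P16, P17 or P18, with DESeq2's Wald test, with no filter or with only the groups compared. The arms did not overlap for 9 of those lower, against 12.4% of all genes, and the median was -0.90. Clu, the clusterin that blocks the terminal complex, measured 187, 156, 118 and 127 CPM in the controls and 76.2, 58.2, 55.7 and 53.2 CPM with knockdown (log2 fold change -1.27, SE 0.063, adjusted p = 1.8e-13). Cd55, which speeds the decay of convertases on the cell surface, measured 667, 673, 591 and 645 CPM in the controls and 241, 282, 333 and 377 CPM with knockdown (log2 fold change -1.08, SE 0.13, adjusted p = 1.53e-05). Serping1, the inhibitor of C1, fell from 7.66 ± 2.85 to 2.5 ± 0.451 CPM and C3ar1, the receptor for the C3a fragment, from 33.6 ± 8.65 to 14.5 ± 8.23 CPM. The central component C3 averaged 237 CPM in the controls and 199 CPM with knockdown (log2 fold change -0.23, adjusted p = 0.0586) and was not called. Without batch P19 the log2 fold change of C3 was -0.32 (adjusted p = 0.00697). The falls took in proteases that start the cascade (C1ra, C1s1, C1rl, Masp1 and Cfb) as well as the inhibitors Cd55, Cd59a, Serping1 and Clu. Ptprc and C1qa, which mark leukocytes and macrophages, were at 0 counts in all 8 libraries.

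Fibril-forming and other collagens rose in 15 of 24 cases and fell in 4, with a median log2 fold change of 0.81, and 13 rose and 4 fell without the block. The 4 that fell were both chains of type I collagen, Col12a1 and Col14a1. Col1a2 (ENSMUSG00000029661.17, chromosome 6) measured 1358, 1260.4, 1228 and 1140.1 CPM in the controls and 397, 454, 382 and 379 CPM with knockdown, with the arms far apart (log2 fold change -1.63, SE 0.098, adjusted p = 3.5e-09). Its partner Col1a1 measured 2267, 1972, 1985 and 2019.9 CPM in the controls and 1535, 1565, 1356 and 1371 CPM with knockdown, a smaller fall (log2 fold change -0.50, SE 0.085, adjusted p = 0.000134). In contrast Col3a1, of the type III fibril, measured 21.7, 28.9, 49.6 and 18.6 CPM in the controls and 90.7, 125, 142 and 55.3 CPM with knockdown (log2 fold change 1.80, SE 0.15, adjusted p = 3.95e-07), and Col16a1, which sits on fibril surfaces, 51.6, 43.7, 46.8 and 35.4 CPM in the controls and 194, 166, 165 and 94.5 CPM with knockdown (log2 fold change 1.77, SE 0.094, adjusted p = 1.57e-10). Col27a1 rose from 3.47 ± 1.1 to 13.8 ± 6.44 CPM, with overlap through the P19 libraries.

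Small leucine-rich proteoglycans, which bind fibrils and set their width, rose in 7 of 10 cases and fell in 1 (Omd), with a median of 0.73. Without the block or without batch P16 4 rose, and in both cases and without P17 none fell. Prelp measured 85.6, 83.5, 97.6 and 79 CPM in the controls and 195, 172, 168 and 117 CPM with knockdown (log2 fold change 0.90, SE 0.094, adjusted p = 1.06e-06), and Fmod, or fibromodulin, rose from 10.2 ± 2.08 to 19.5 ± 1.27 CPM (log2 fold change 0.95, adjusted p = 7.91e-06). Ogn rose from 211 ± 40.5 to 319.7 ± 98.6 CPM with the block but not without it (adjusted p = 0.0663). Among 19 genes of the elastic fibre, 9 rose and 6 fell. Ltbp1, which stores latent TGF-beta in the matrix, measured 307, 335, 320.4 and 224 CPM in the controls and 589, 654, 596 and 373 CPM with knockdown (log2 fold change 0.88, SE 0.048, adjusted p = 7.4e-13), and Fbln5, which organises elastin, rose from 130.3 ± 10.8 to 251 ± 63.5 CPM. The cross-linking enzyme Loxl2 fell from 255 ± 33 to 118 ± 13.7 CPM (log2 fold change -1.11, adjusted p = 5.31e-09), Lox from 477 ± 49.2 to 283 ± 42.7 CPM (log2 fold change -0.76, adjusted p = 4.5e-10) and the microfibril protein Emilin2 from 105 ± 10.1 to 44 ± 10.8 CPM (log2 fold change -1.27, adjusted p = 9.94e-06).

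In the basement membrane list, 6 of 18 rose and 4 fell, among them Lamb3, Lamc1 and Agrn, against 20.4% and 20.9% of all genes. Without the block 2 fell, against 13.3% of all genes. Itgb4, an integrin chain that binds laminin, fell from 64.5 ± 17.1 to 23.1 ± 1.43 CPM (log2 fold change -1.45, adjusted p = 1.47e-06). Lama4, of the vascular laminins, rose from 15.3 ± 1.48 to 29.2 ± 4.83 CPM and Col4a6 from 3.53 ± 3.07 to 13.3 ± 4.29 CPM. Itgb8, which activates latent TGF-beta, rose from 3.69 ± 0.902 to 12.2 ± 1.67 CPM (log2 fold change 1.71, adjusted p = 2.79e-08), and the 18 integrins together held 6 rises, 3 without batch P18, and 6 falls. Of 25 matrix proteases and inhibitors 10 fell and 4 rose (Adamts1, Adamts6, Adamts10 and Timp4), and without the block 4 fell and 1 rose. Mmp3, or stromelysin, measured 24.7, 21.3, 20.5 and 25.8 CPM in the controls and 5.8, 8.96, 12.1 and 20.2 CPM with knockdown (log2 fold change -1.02, SE 0.28, adjusted p = 0.0114), with the P19 knockdown library just under the lowest control. Without batch P16, P17 or P18 it was not called, with adjusted p-values up to 0.0795. Timp1, an inhibitor of these proteases, fell from 10.2 ± 1.72 to 7.61 ± 0.798 CPM, a call lost without P16.

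Contractile genes were split: 7 of 23 tested rose, 4 of them at a mean of at least 1 CPM, 9 fell, and the median was -0.02. That median was not stable: it was -0.24 at a mean of at least 1 CPM, -0.14 without batch P18 and 0.0033 without P17. The share called was 69.6% against 41.3% of all genes. Acta2, the actin of smooth muscle, went from 209.9 ± 15.8 to 208 ± 42 CPM (log2 fold change -0.02, adjusted p = 0.918), and its arms overlapped. Smtn, or smoothelin, measured 44.9, 47.8, 51.6 and 55.7 CPM in the controls and 87.5, 75.3, 68.9 and 63.9 CPM with knockdown (log2 fold change 0.56, SE 0.086, adjusted p = 2.79e-05). Myl9, the regulatory light chain, fell from 15.4 ± 6.32 to 4.72 ± 1.95 CPM, Ppp1r12b, a targeting subunit of myosin phosphatase, from 139 ± 6.58 to 76.2 ± 6.35 CPM and Fhl1 from 712 ± 9.26 to 423 ± 22.7 CPM. The call of Myl9 was lost without batch P16 or P17 (adjusted p up to 0.0741). Tagln and Myh11 were called higher at levels of 0.0617 to 2.05 CPM (adjusted p = 0.0293 and 0.0158), where few counts stand behind each value. Myh11 was not called without batch P16, and Tagln was not called without P16, P18 or P19 and not without the block (adjusted p = 0.0652).

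Regulators of the smooth muscle state were split, with 10 of 23 higher, 6 without the block, and 6 lower. Mef2a, a partner of contractile gene control, measured 246, 263, 254 and 244 CPM in the controls and 143, 149.9, 152 and 147 CPM with knockdown, with no overlap between arms (log2 fold change -0.77, SE 0.049, adjusted p = 1.44e-11). Klf4, which represses contractile genes, fell from 298 ± 13.6 to 220.3 ± 28.5 CPM (log2 fold change -0.44, adjusted p = 3.92e-06), Myocd, the coactivator that drives them, fell from 2.36 ± 0.932 to 0.874 ± 0.147 CPM (log2 fold change -1.38, adjusted p = 0.00221), and Sox9, a factor of cartilage, rose from 74.4 ± 7.95 to 123 ± 13.9 CPM (log2 fold change 0.73, adjusted p = 5.99e-11). Gata6, which favours the differentiated state, measured 257, 253, 231 and 226 CPM in the controls and 384, 433, 388 and 253 CPM with knockdown, where the P19 knockdown library lay within the control range (log2 fold change 0.57, SE 0.085, adjusted p = 3.71e-05).

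The receptors of angiotensin II were at or near 0. Agtr1a had 0 counts in every control library and 2 at most with knockdown, Agtr1b and Agtr2 had 0 in all 8, and Mas1 at most 2. In a library of 15771490 counts, the smallest, a count of 0 allows up to 3 counts at the floor used here, which covers counting error only. Of the 23 tested genes of the renin-angiotensin system and of AT1 signalling, 8 rose and 5 fell (Ace, Atp6ap2, Agtrap, Plcb1 and Ptgs2), against 20.4% and 20.9% of all genes. Without the block 5 rose and 1 fell, against 13.4% and 13.3%, without batch P17 5 rose and 3 fell, and without P18 5 rose. Agtrap, which promotes internalisation of the receptor, measured 32.9, 33.6, 32.8 and 30.5 CPM in the controls and 20.3, 20.1, 20.9 and 24.5 CPM with knockdown (log2 fold change -0.60, SE 0.088, adjusted p = 7.15e-06). Gnaq, the G protein that links the receptor to phospholipase C, rose from 90.6 ± 6.85 to 124 ± 5.12 CPM (log2 fold change 0.45, adjusted p = 4.53e-08). Agt, the precursor of angiotensin, rose from 0.316 ± 0.059 to 2.38 ± 1.26 CPM (log2 fold change 2.75, adjusted p = 6.8e-06), at a low level. Ptgs2, or cyclooxygenase 2, fell from 17.8 ± 5.53 to 9.79 ± 5.15 CPM with the block but not without it (adjusted p = 0.0863). Among 18 immediate early genes, which growth signals switch on within minutes, 6 rose, 3 without batch P17, and 5 fell. Egr1 measured 26.8, 35.5, 48.9 and 30.3 CPM in the controls and 88.4, 88.5, 87.4 and 50.4 CPM with knockdown (log2 fold change 1.15, SE 0.23, adjusted p = 0.00121), Jun rose from 15.2 ± 3.11 to 28.1 ± 5.63 CPM, and Myc fell from 84.7 ± 4.9 to 49.3 ± 11.8 CPM and Junb from 74.9 ± 18.8 to 44 ± 3.38 CPM. Of 13 feedback regulators of ERK 4 rose, 2 without the block or without batch P16, and 2 fell, and the share called was 46.2% against 41.3% of all genes. Phlda1 rose from 47.6 ± 6.57 to 70.8 ± 9.83 CPM and the phosphatases Dusp4 and Dusp6 fell by 1.02 and 0.59 on the log2 scale, and both falls were lost without the block (adjusted p = 0.115 and 0.263).

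Of 24 genes of PDGF, FGF and IGF signalling 9 rose and 4 fell (Pdgfb, Fgf18, Igfbp3 and Igfbp7), and the share called was 54.2% against 41.3% of all genes. Pdgfb, the B chain of PDGF, measured 13.5, 10.4, 11.3 and 7.95 CPM in the controls and 1.75, 3.08, 2.99 and 2.99 CPM with knockdown, with no overlap (log2 fold change -1.99, SE 0.17, adjusted p = 2.07e-09). Pdgfra, a receptor of PDGF, measured 12.8, 18.1, 19.2 and 5.3 CPM in the controls and 58.5, 59.9, 55.7 and 14.6 CPM with knockdown. It was higher with knockdown in each batch, yet the P19 knockdown value lay within the control range (log2 fold change 1.74, SE 0.20, adjusted p = 7.67e-06). Fgfr1 rose from 117 ± 7.44 to 251 ± 37.3 CPM (log2 fold change 1.09, adjusted p = 1.8e-12) and Fgfr2 from 2.82 ± 0.942 to 9.28 ± 2.35 CPM (log2 fold change 1.71, adjusted p = 2.16e-06). Igfbp7, a secreted binding protein, fell from 184 ± 30.6 to 75.3 ± 20.0 CPM (log2 fold change -1.29, adjusted p = 1.5e-05).

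Of 14 Notch genes 6 rose and 3 fell. The receptor Notch2 measured 156, 154, 155 and 144 CPM in the controls and 396, 416, 327 and 266 CPM with knockdown (log2 fold change 1.19, SE 0.072, adjusted p = 8.93e-11), Notch1 rose from 12.2 ± 0.913 to 29.5 ± 6.08 CPM and Notch3, the receptor typical of vascular smooth muscle, from 13.8 ± 0.999 to 26.8 ± 3.34 CPM, while the ligand Jag2 fell from 19.6 ± 2.39 to 9.83 ± 0.469 CPM. In the BMP pathway 10 of 22 fell, 6 without batch P16 or P17, and 4 rose (Bmpr2, Acvr1, Acvr2b and Smad5). Its target Id1, which blocks differentiation factors, measured 86.1, 75.6, 78 and 58.5 CPM in the controls and 40.7, 37.6, 42.6 and 39.5 CPM with knockdown (log2 fold change -0.89, SE 0.076, adjusted p = 2.31e-09), Id3 fell from 172 ± 23.1 to 106 ± 7.25 CPM and the antagonist Grem1 from 9.58 ± 2.76 to 3.48 ± 1.37 CPM, a call lost without P16 or P17. In the TGF-beta pathway 8 of 22 fell and 5 rose (Tgfbr1, Smad3, Smad4, Tgfbi and Inhba), of which 3 rose without the block and without batch P17 or P18. Its type II receptor Tgfbr2 measured 381, 378, 370.4 and 404 CPM in the controls and 192, 222, 217 and 284 CPM with knockdown (log2 fold change -0.75, SE 0.082, adjusted p = 1.12e-06), and Fst, or follistatin, fell from 18.2 ± 2.49 to 10.3 ± 3.25 CPM. In the WNT pathway 5 of 22 rose and 5 fell (45.5% called, against 41.3% of all genes), 3 and 2 without the block, and 3 fell without batch P16. Besides Wnt5b, the receptor Fzd1 rose from 38.9 ± 2.63 to 66.4 ± 6.64 CPM, and the ligand Wnt4 fell from 13.7 ± 1.86 to 7.44 ± 0.93 CPM. Of 15 Hippo pathway genes and targets 3 rose (Amotl1, Arhgef17 and Ptpn14) and 9 fell, among them Tead4, the DNA-binding partner of YAP, from 10.9 ± 0.471 to 6.04 ± 1.58 CPM and Amotl2, a YAP target and inhibitor, from 229 ± 15.8 to 151 ± 30.8 CPM.

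More of the genes that make ribosomes fell than rose, and most genes of ribosomal proteins were not called. Of 36 ribosome biogenesis genes 22 fell and 2 rose (Polr1a and Ubtf), with a median of -0.23, and without the block 13 fell and 1 rose. No rise was called without batch P16 or P17. Wdr12 (ENSMUSG00000026019.16, chromosome 1), which matures the large subunit in a complex with Bop1, measured 46.6, 51.1, 49.9 and 52.8 CPM in the controls and 16.3, 17.3, 14.9 and 19.5 CPM with knockdown. The knockdown libraries were all far below the controls (log2 fold change -1.56, SE 0.072, adjusted p = 5.2e-14). Bop1 itself fell less, from 57.8 ± 3.87 to 39.9 ± 6.34 CPM (log2 fold change -0.55, adjusted p = 2.28e-06). Of 55 cytosolic ribosomal proteins 18 rose and 3 fell (Rpl10a, Rpl11 and Rpl12), with a median of 0.07, and the share called was 38.2% against 41.3% of all genes. Without the block 11 rose, and without batch P16, P17 or P18 9, 11 and 10 rose. Rpsa rose from 921 ± 49.1 to 1388 ± 102 CPM (log2 fold change 0.59, adjusted p = 5.81e-09). This family has many processed pseudogenes, so its values could depend on how reads were divided, which was not tested.

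Of 34 genes of ATF4 and the unfolded protein response 18 fell and 3 rose (Atf5, Ddit3 and Trib3). Asns, the asparagine synthetase, fell from 22.2 ± 3.79 to 11.9 ± 5.79 CPM with the block but not without it (adjusted p = 0.0541), and Slc7a5, a carrier of large amino acids, fell from 31.4 ± 2.99 to 19.5 ± 3.99 CPM in both fits. Among 24 antioxidant genes under NRF2 control 13 fell and 6 rose, and 7 fell without the block. Txnrd1 (ENSMUSG00000020250.12, chromosome 10), the thioredoxin reductase of the cytosol, measured 391, 376, 384 and 490.2 CPM in the controls and 128, 140.1, 132 and 132 CPM with knockdown. The knockdown libraries were nearly equal across batches (log2 fold change -1.62, SE 0.07, adjusted p = 2.35e-13). Gsta4 fell from 227 ± 33.5 to 111 ± 21.9 CPM (log2 fold change -1.03, adjusted p = 2.35e-13), whereas Sod3, the secreted superoxide dismutase, measured 18.4, 15.4, 21 and 28.9 CPM in the controls and 51.2, 47.2, 41.6 and 76.4 CPM with knockdown (log2 fold change 1.37, SE 0.12, adjusted p = 5.16e-08). Of 37 genes of oxidative phosphorylation 12 fell and 2 rose (Ndufv1 and Cox4i1), with a median of -0.09, and the share called was 37.8% against 41.3% of all genes. Without the block 5 fell, and without batch P16 or P17 7 and 6 fell. Cox5a, a subunit of cytochrome oxidase, fell from 41 ± 3.84 to 25.8 ± 1.4 CPM (log2 fold change -0.66, adjusted p = 1.06e-07).

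The effect of knockdown under angiotensin II was close to its effect without the hormone. In the untreated libraries of the same batches, which share no library with the comparison above, 6126 genes were called (40.6%). Of these, 4990 were called in both settings, 80% of one list and 81.5% of the other, and 4989 had the same sign. Across all 15103 genes Pearson's r between the log2 fold changes was 0.791, and across the 6238 genes called under angiotensin II it was 0.937. These are descriptions across genes, which are not independent replicates, and both settings share the batches. Of the 1039 genes that changed by at least 1, 838 were also called in untreated cells and 9 had the opposite sign there. Igf1r changed by 2.76 with angiotensin II and 2.62 without, Zfp57 by -2.72 and -2.73, Col1a2 by -1.63 and -1.75, and Mki67 by -2.08 and -1.73. Mitotic genes fell in 46 and 41 of 50 cases, cholesterol genes in 23 and 23 of 23, and interferon genes in 21 and 25 of 32. Counts lay further apart in other lists. Cytosolic ribosomal proteins rose in 18 and 9 of 55 cases and replication genes in 3 and 8 of 40. Chemokines, cytokines and adhesion molecules fell in 9 and 6 of 15.

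**Figure D5:**
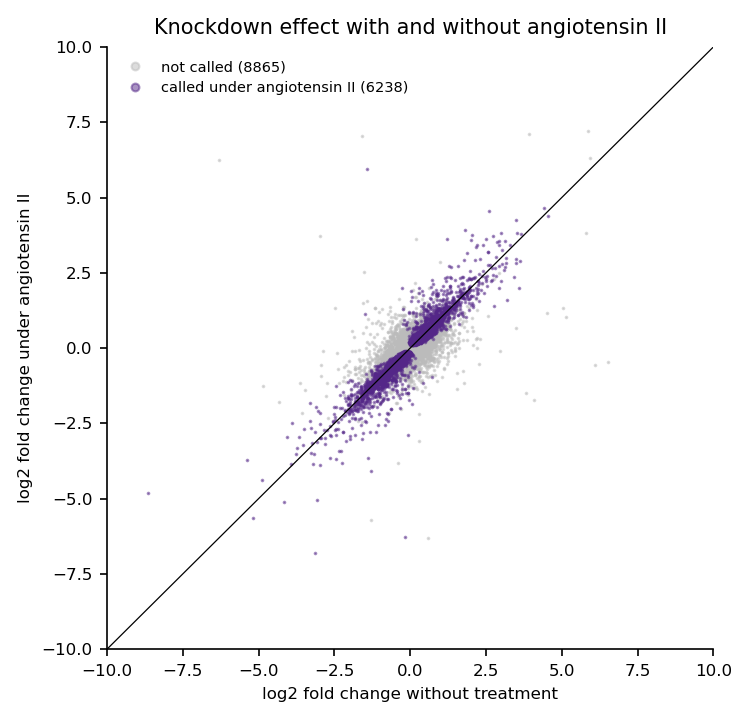
Log2 fold change of each tested gene on knockdown without angiotensin II (horizontal) and with it (vertical), with genes called under angiotensin II in colour and the line of equality. The points follow the line (r = 0.791 over 15103 genes).

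No gene was called for a difference between the effects with and without angiotensin II. The interaction of knockdown and angiotensin II gave 0 calls in edgeR's quasi-likelihood test (smallest adjusted p = 0.745) with 326 genes at an unadjusted p under 0.05, and DESeq2's Wald test called 2. Angiotensin II in control cells gave 0 calls (smallest adjusted p = 0.953), with 262 genes at an unadjusted p under 0.05, and DESeq2 called 3. The median standard error of the interaction was 0.111 on the log2 scale over the genes called under angiotensin II, and the median absolute difference between settings was 0.0738. Of those 6238 genes 100 differed by at least 1 between settings and 165 had an unadjusted interaction p under 0.05. A difference of the median size was not detectable at this depth and number of libraries. The interaction was nearest to the threshold for Gm4724, a predicted gene, which measured 6.27, 7.4, 6.19 and 7.52 CPM in the controls and 8.73, 17.3, 13.9 and 20.0 CPM with knockdown: it rose by 1.12 under angiotensin II (adjusted p = 0.0119) and fell by 1.49 on the log2 scale without it (adjusted p = 0.00142), with an adjusted p of 0.745 for the interaction in edgeR. Its call under angiotensin II was lost without batch P17 or P19. Reads shared with near copies of this predicted gene could move its values. Among genes with symbols Cfap126, a cilia gene, came next, at -0.38 with angiotensin II and 0.76 without, and the other two of the smallest p-values belonged to identifiers with no symbol.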

How the data were processed

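RNA sequencing (paired reads of 75 bases) measured transcripts in these cultures, and the authors deposited expected counts for each gene. Per the submitters' processing notes the authors used STAR 2.7.11b and RSEM 1.3.1, and GRCm39 and mm10 are named without their role; the annotation and the use of strand are not given in the sources used here. Expected counts divide reads among similar genes and transcripts, so paralogs are uncertain. They were rounded to whole numbers. Symbols came from GENCODE M21 (51486 of 78334 identifiers, holding 98.4% of run 3 counts) and promoters from RefSeq (GRCm38.p6).

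All 20 run 3 libraries in 5 groups were fitted in edgeR 4.0.16 (R 4.3.3, limma 3.58.1; TMM, filterByExpr with minimum counts of 10 and 15, robust quasi-likelihood F-test) with the replicate number as a block, since the labels give each number a shared batch. Deviations from group means correlated at 0.197 on average between libraries of the same number, with a range of 0.00908 to 0.644. Other pairs averaged -0.0606, but centring each group on its own mean pushes that value below 0. The contrast of these means is therefore not independent support for the pairing. Fits without the block, DESeq2 1.42.0, other filters and left-out libraries were alternatives. The common biological coefficient of variation was 0.0848 with the block and 0.148 without. Depth was 15771490 to 30362047 counts over the 20 libraries and 15771490 to 20385011 in the 8 under angiotensin II. Counting error only is covered by the floor of 3 counts.

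Members and lists were chosen with earlier results of these data known. Named genes were the target and its neighbours, the 12 largest rises and falls (mean of at least 5 CPM, a full symbol, no overlap, called without the block), the leading called members and textbook genes of each list, the 5 smallest adjusted p-values at 100 CPM or more, and the 4 smallest interaction p-values. Agt, B2m, C3, Cdc20, Cdk1, Col1a1, Col1a2, Cxcl1, Ebp, Fgfr1, Foxm1, Hjurp, Hmgcs1, Igf1, Igfbp7, Il6, Irf7, Irs1, Kif11, Lox, Myocd, Pttg1, Srebf2, Tap2, Top2a and members named beside a count of 10 or fewer were chosen after their values were seen. Some genes that these rules name are not reported here.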

Additional observations from a re-analysis of the deposited data

Results flagged for a closer look

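In a group of 4 libraries, a library was picked out when the gap between it and its nearest neighbour took more of the range of the group than the 95% critical value of Dixon allows. Chance picks out about 1 in 20 groups. Over the genes named with values here, 56 of 352 groups were picked out, and 51 of these libraries came from batch P19: its knockdown library was the highest of its arm for 32 genes and the lowest for 4, and its control library the highest for 13 and the lowest for 2. Over all 10616 genes with a mean of at least 5 CPM, the P19 knockdown library was picked out for 468 genes as the highest and 213 as the lowest, and the P19 control for 359 and 229, against at most 53 genes for any other library in either direction. The cause was not tested.

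Among genes of cell division, the P19 knockdown library stood above the other 3 knockdown libraries for Aurkb (4.78 CPM, others 0.359 to 0.849), Bub1b (7.47 CPM, others 2.54 to 2.93), Ccnb1 (12.6 CPM, others 1.08 to 2.2), Ccnb2 (6.13 CPM, others 0.594 to 0.849), Ccnd1 (531 CPM, others 124 to 157), Ccnd2 (641 CPM, others 261 to 294), Cdc20 (8.37 CPM, others 1.9 to 2.93), Cenpf (12 CPM, others 0.898 to 1.33), Kif11 (14.7 CPM, others 1.78 to 2.55), Mcm5 (15.5 CPM, others 5.07 to 5.75), Mki67 (30.1 CPM, others 1.62 to 4.19) and Top2a (60 CPM, others 18.8 to 22.3). Among genes of sterol and fatty acid synthesis, it stood above them for Cyp51 (167 CPM, others 33.3 to 40.1), Ebp (23.1 CPM, others 14.9 to 15.8), Elovl6 (30.6 CPM, others 12.4 to 12.9), Hmgcs1 (265 CPM, others 82 to 93.1), Idi1 (213 CPM, others 33.4 to 42.5), Nsdhl (22.6 CPM, others 5.39 to 5.8), Scd1 (405 CPM, others 169 to 196) and Srebf2 (341 CPM, others 155 to 165). The P19 control stood above the other controls for Cyp51 (399 CPM, others 131 to 145), Elovl6 (57.8 CPM, others 21.9 to 24.5), Hmgcs1 (521 CPM, others 226 to 253), Idi1 (454 CPM, others 152 to 168), Me1 (177 CPM, others 99.8 to 104), Nsdhl (63.2 CPM, others 21.4 to 23.6), Scd1 (977 CPM, others 421 to 461) and Srebf2 (444 CPM, others 299 to 321).

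Other genes with the P19 knockdown library on top were Agtrap (24.5 CPM, others 20.1 to 20.9), Atp2b1 (1007 CPM, others 872 to 887), Ccl2 (8.07 CPM, others 3.95 to 4.59), Cemip (257 CPM, others 95.5 to 104), Dusp4 (61.9 CPM, others 22.1 to 25), F2rl1 (4.53 CPM, others 2.11 to 2.2), Gsta4 (144 CPM, others 95.8 to 104), Hecw1 (17.6 CPM, others 4.89 to 6.83), Igfbp7 (105 CPM, others 61.9 to 69.3), Loxl2 (139 CPM, others 110 to 113), Ly6a (82.6 CPM, others 16.3 to 21.2) and Ptgs2 (17.5 CPM, others 6.62 to 7.64). It was the lowest of its arm for Col11a2 (7.27 CPM, others 19.1 to 20.9), Col27a1 (4.28 CPM, others 16.4 to 18.3), Egr1 (50.4 CPM, others 87.4 to 88.5) and Pdgfra (14.6 CPM, others 55.7 to 59.9). The P19 control was the highest for C3ar1 (46.6 CPM, others 28.6 to 30.2), Dusp4 (95.4 CPM, others 47.6 to 54.9), Myc (92.1 CPM, others 81.7 to 82.8), Prl (1.42 CPM, others 0.292 to 0.38) and Txnrd1 (490 CPM, others 376 to 391), and the lowest for C3 (142 CPM, others 267 to 271) and Zfp57 (104 CPM, others 172 to 185). Outside batch P19, the P18 control library was the highest for Cdk6 (109 CPM, others 90.9 to 93.2), the P16 control library was the highest for Col1a1 (2267 CPM, others 1972 to 2019.9), the P17 control library was the highest for Myh11 (0.392 CPM, others 0.0617 to 0.117), the P16 control library was the lowest for Notch1 (10.8 CPM, others 12.5 to 12.8), and the P16 knockdown library was the lowest for Pdgfb (1.75 CPM, others 2.99 to 3.08).

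The difference between the effects of knockdown with and without angiotensin II was called for 0 of 15103 genes in edgeR's quasi-likelihood test (326 at an unadjusted p under 0.05, and 2 called by DESeq2), so no gene was picked out there.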

How the results depend on the processing

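The count of 6238 genes under angiotensin II was 4033 without the replicate number as a block, 1039 when a log2 change of 1 or more was also required, and between 5737 and 6363 with DESeq2, its size factors, other filters, only the groups compared or no PDGF-BB libraries. It ran from 4610 to 6381 without 1 batch (4708, 4610, 5041 and 6381 without P16 to P19), from 5270 to 6083 without a single angiotensin II library and from 6145 to 6343 without a single untreated one, and was 6049 without P19 and without the block, an alternative added after the data were seen. In untreated cells the count of 6126 was 3783 without the block and 978 when such a change was required. The interaction, with 0 calls, had 2 with DESeq2, 50 with no filter on low counts, and 1 with only the groups compared, without the PDGF-BB libraries, without replicate 1 and without the first knockdown library under angiotensin II. Angiotensin II in control cells, also with 0, had 3 with DESeq2, 47 with no filter, and 1 with only the groups compared, without the PDGF-BB libraries, without replicate 1 and without the second untreated control. Leaving out replicates gave 0 to 1 calls for both. The fall of the targeted RNA was called under every alternative run, between -0.99 and -0.72.

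Of 176 genes named with values, 28 were called with the replicate block and lost the call without it, with adjusted p-values of 0.051 to 0.372 (Asns, Aurkb, Bub1b, Ccnb1, Ccnb2, Ccnd1, Ccnd2, Cdc20, Cdk1, Cemip, Cenpf, Cyp51, Dusp4, Dusp6, Elovl6, Hmgcs1, Hmmr, Idi1, Kif11, Mcm5, Mgp, Mki67, Ogn, Ptgs2, Srebf2, Tagln, Tap2 and Tk1). Without replicate 1, 13 lost the call, without replicate 2 14 and without replicate 3 15. Among these were the mitotic genes Aurkb, Bub1b, Ccnb1, Ccnb2, Cdc20, Cenpf, Hmmr and Mki67, and Ccnd2, Mcm5 and Tk1. Without replicate 4, 4 lost it, namely A330102I10Rik, Gm4724, Prl and Tagln, none of them mitotic. Pttg1 passed the threshold without replicate 3. C3 and Cxcl1 passed it with no filter on low counts, and C3 also with DESeq2, with its size factors, with only the groups compared and without the PDGF-BB libraries. With only the groups compared Hmmr, Mki67 and Mmp3 lost the call. The log2 fold change of Acta2, which was not called, ranged from -0.123 to 0.0657 without 1 replicate and was above 0 without replicates 2 and 3 (0.0209 and 0.0657), and without the P18 control, the P17 knockdown library or the P18 knockdown library (0.0313, 0.0335 and 0.0291). Leaving out libraries leaves fewer samples in the fit, and other causes were not tested. At this depth, genes near 1 CPM rest on few counts, which limits the precision of their fold changes.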

Other observations

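Among adhesion genes, 7 of 11 tested genes of the cadherin family rose under angiotensin II and Cdh1 fell, with a median log2 fold change of 0.32 against 0.01 over all genes. Fat4, a giant cadherin of planar cell polarity, measured 10.4, 12.9, 16.4 and 10.4 CPM in the controls and 39, 50.1, 41.9 and 28.7 CPM with knockdown, with the P19 library the lowest of the knockdown arm (log2 fold change 1.67, SE 0.11, adjusted p = 2.36e-11). Cdh11, the cadherin of mesenchymal cells, rose from 18.7 ± 1.24 to 43.6 ± 3.06 CPM (log2 fold change 1.22, adjusted p = 2.35e-11), and Cdh1, the epithelial cadherin, fell from 116 ± 10.3 to 46.5 ± 12.5 CPM (log2 fold change -1.33, adjusted p = 0.000188). Of 28 semaphorins, plexins and neuropilins, which guide migrating cells, 9 rose and 5 fell (50% called, against 41.3% of all genes), 3 and 2 without the replicate number as a block, and 3 fell without batch P17. The receptor Plxna2 rose from 54.3 ± 1.94 to 98.9 ± 11.2 CPM in both fits (log2 fold change 0.86, adjusted p = 1.79e-08). Of 11 genes that make, bind or break down hyaluronan 6 fell and none rose, against 20.9% of all genes lower, and 2 fell without the block. Cemip, which degrades it, measured 227, 232, 289 and 354 CPM in the controls and 99.4, 95.5, 104 and 257 CPM with knockdown (log2 fold change -1.08, SE 0.22, adjusted p = 0.00153, and adjusted p = 0.0519 without the block).

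Of 17 tested genes of calcium handling, 7 rose, 3 without batch P17 or P18, and 3 fell (Atp2a2, Orai1 and Trpm7), against 20.4% and 20.9% of all genes. Atp2b1, the pump that moves calcium out of the cell, measured 435, 469.7, 439 and 428 CPM in the controls and 887, 872, 878 and 1007 CPM with knockdown, with every knockdown library above every control (log2 fold change 1.04, SE 0.068, adjusted p = 1.09e-10). Itpr1, the release channel of the endoplasmic reticulum, rose from 96.9 ± 9.42 to 139.6 ± 8.59 CPM, and Atp2a2, the pump that refills this store, fell from 326 ± 18.7 to 262 ± 21.1 CPM (log2 fold change -0.32, adjusted p = 9.15e-06). Among 10 genes of vascular calcification 2 rose (Sox9 and Enpp1), 1 without batch P18, and 5 fell, 3 without the block or without batch P16, against 20.4% and 20.9% of all genes. The falls took in Tnfrsf11b, or osteoprotegerin, from 34.6 ± 5.02 to 20.6 ± 8.03 CPM and Mgp, an inhibitor of calcification, from 16.4 ± 4.98 to 11.7 ± 0.346 CPM, the latter not called without the block (adjusted p = 0.0661) or without batch P16.

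In a list of imprinted genes and the regulator Zfp57, 7 of 17 tested genes rose and 3 fell (Cdkn1c, Gnas and Zfp57 itself). Peg10, a gene of retrotransposon origin, rose from 5.29 ± 1.23 to 11 ± 0.74 CPM (log2 fold change 1.07, adjusted p = 1.65e-06) and Impact from 158 ± 4.28 to 213 ± 10.9 CPM (log2 fold change 0.43, adjusted p = 5.02e-08). Of 25 long noncoding RNAs 4 rose, 2 without the block, and 4 fell, and the share called was 32% against 41.3% of all genes. Neat1, the scaffold of paraspeckles, measured 3268, 2762, 3347 and 1485 CPM in the controls and 1640.1, 1248, 1739 and 1291 CPM with knockdown, where the P16 and P18 knockdown libraries exceeded the P19 control (log2 fold change -0.81, SE 0.18, adjusted p = 0.00313). Of 29 genes of glycolysis and the hypoxia response 7 rose and 7 fell (48.3% called), 2 and 4 without the block, and 4 fell without batch P16. The glucose transporter Slc2a1 fell from 41.9 ± 5.8 to 28 ± 3.02 CPM in both fits (log2 fold change -0.58, adjusted p = 6.76e-06). Of 33 genes of the lysosome and autophagy 7 rose, 4 without batch P17, and 13 fell, against 20.4% and 20.9% of all genes. Without the block 5 fell, against 13.3% of all genes. Gabarapl1, which marks autophagosomes, rose from 133 ± 5.73 to 186 ± 14.5 CPM (log2 fold change 0.48, adjusted p = 1.64e-05).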
